A study of Mus musculus with 20 samples.

Results

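Klb, Fgfr4 and Nr0b2 (also called Shp) were followed in the livers of 20 mice, as the genes of the receptor complex and of a repressor through which liver bile acid synthesis is held in check. Probes were taken by gene symbol in the platform annotation. Each of the 3 genes had 1 probe, so that the 3 probes stood among 23574 on the array, and the 3 genes among 11734 named genes. All 3 probes gave a value on all 20 arrays, no value lay at the limit of the deposited scale, and no filter on low values was applied.

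Bile acids are made from cholesterol in hepatocytes, and the pathway is switched off when enough of them return to the gut and liver. In the ileum, bile acids induce the hormone FGF15, which travels to the liver and binds the receptor tyrosine kinase FGFR4 together with its co-receptor beta-Klotho, the product of Klb. Within the hepatocyte, the bile acid receptor FXR (Nr1h4) induces Nr0b2, an orphan nuclear receptor without a DNA-binding domain that represses other nuclear receptors, among them LRH-1 (Nr5a2) and HNF4A (Hnf4a) at the genes of bile acid synthesis. Beta-Klotho is also the co-receptor of FGF21, a fasting hormone of the liver.

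The mice were C57BL/6J of the FCG cross, in which the Y chromosome lacks the testis gene Sry and a Sry transgene on an autosome decides the gonads. Liver RNA came from 4 groups of 5 animals: XX Sry and XY-Sry, both gonadal males that carry the transgene, and XX and XY-, both gonadal females that lack it. All 20 animals were gonadectomized at 8 weeks, were kept on chow with 4% fat, and died at 12 weeks having fasted for 12 h. Gonadal type here therefore stands for the transgene itself together with the gonads carried until 8 weeks, and the promoter of the transgene was not given in the sources used here. Each animal had an array of its own, the liver labelled with Cy5 and the common liver pool with Cy3. Values below are log2 ratios of liver over pool. They have no absolute level, so that a difference between groups can be read for each gene but the level of one gene cannot be set against that of another.

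The Y-linked genes were examined as a check on the labels. Eif2s3y, a Y-linked subunit gene of a translation factor, ranged over -5.28 to -2.46 on the log2 scale among XX livers (n = 10), and over 0.57 to 1.34 in all but 1 of the 10 that were labelled XY. The library labelled XY- animal 30 stood at -3.90, within the range of the XX livers, and Kdm5d, also Y-linked, stood at -3.16 in it. Eif2s3x, its X-linked counterpart, stood at 0.51 in that library. It ran from -0.28 to 0.72 in the XX livers and from -0.67 to -0.49 in the other XY- livers. The library labelled XY- animal 30 was kept under its label. The gonadal type and sex chromosome differences of the 3 genes and the counts of marker and pathway genes called are also given without it. The SD of all log2 ratios of an array ran from 0.175 to 0.341. It exceeded 0.3 on 4 arrays, all without Sry (XX 6, XX 2, XY- 12 and XY- 3). Values without these arrays are given where a call or a direction changed, and for some results of which only the size changed. The precision is limited by the number of arrays.

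The 250 bases before the annotated start of each gene are shown because the 3 genes differed in how they varied across the livers, and because known partners of Nr0b2 bind DNA at motifs that can be searched. They come from RefSeq (build GRCm38.p6), run 5′ to 3′, and end 1 base before the start. Capitals mark matches to the searched motifs.
Klb, chr5:65348161-65348410, + strand: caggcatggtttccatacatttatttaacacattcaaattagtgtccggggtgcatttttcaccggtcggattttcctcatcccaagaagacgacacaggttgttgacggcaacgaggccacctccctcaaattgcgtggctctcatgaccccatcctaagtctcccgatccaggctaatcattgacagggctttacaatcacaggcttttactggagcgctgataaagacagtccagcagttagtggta
Fgfr4, chr13:55152568-55152817, + strand: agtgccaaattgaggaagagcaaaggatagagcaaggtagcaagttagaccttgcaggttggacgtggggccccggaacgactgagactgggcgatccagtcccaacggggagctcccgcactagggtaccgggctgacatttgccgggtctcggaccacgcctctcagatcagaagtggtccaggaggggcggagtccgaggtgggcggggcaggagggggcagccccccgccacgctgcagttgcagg
Nr0b2, chr4:133553126-133553375, + strand: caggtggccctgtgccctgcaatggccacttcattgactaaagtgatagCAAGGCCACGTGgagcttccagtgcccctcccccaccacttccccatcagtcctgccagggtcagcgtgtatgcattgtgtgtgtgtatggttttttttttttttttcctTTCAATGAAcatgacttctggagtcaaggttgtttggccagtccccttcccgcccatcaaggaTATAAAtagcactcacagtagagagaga

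Motifs were searched on both strands of these windows. They were CAAGGNCA, an extended half-site of the kind LRH-1 binds, the FXR inverted repeat, the E-box CACGTG, the TATA box TATAAA, and TTCNNNGAA, a palindrome bound by STAT factors. The Nr0b2 window held 4 matches. CAAGGCCA began 201 bases before the start and overlapped by 2 bases the E-box CACGTG at 195. The STAT palindrome TTCAATGAA began at 91, and the TATA box at 28 bases before the start. The windows of Klb and Fgfr4 held no match. Among 32526 windows of the same length, 5.54% held CAAGGNCA, 6.04% the E-box, 12.3% the TATA box, 7.04% the STAT palindrome and 0.00615% the FXR inverted repeat. The G and C content was 48% for Klb, 64% for Fgfr4 and 50% for Nr0b2. A match describes letters in the window and not a bound site.

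Klb was higher in livers of mice that carried Sry. Klb encodes beta-Klotho, which lacks a kinase of its own and holds FGF15 or FGF21 on its FGF receptor. In XX Sry animals 38, 18, 9, 31 and 32, Klb stood at log2 ratios of 0.11, 0.26, 0.20, 0.59 and 0.31. All 5 livers of XX Sry were above the pool. In XY-Sry animals 19, 27, 20, 5 and 14, the log2 ratios of Klb were 0.28, 0.31, -0.11, 0.05 and 0.05. Animals 19 and 27 were close to the XX Sry livers, and animal 20 was the only Sry carrier below the pool.

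In XX animals 29, 6, 21, 35 and 2, the log2 ratios of Klb were 0.06, -0.29, -0.26, -0.18 and -0.90. Animal 2 had the lowest Klb ratio of all 20 livers. In XY- animals 12, 30, 24, 3 and 22, Klb stood at -0.47, 0.04, -0.14, -0.57 and -0.40. Of the livers without Sry, 8 of 10 were below the pool, against 1 of 10 with Sry. The ranges of the 10 livers with and the 10 without Sry overlapped.

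**Figure D1:**
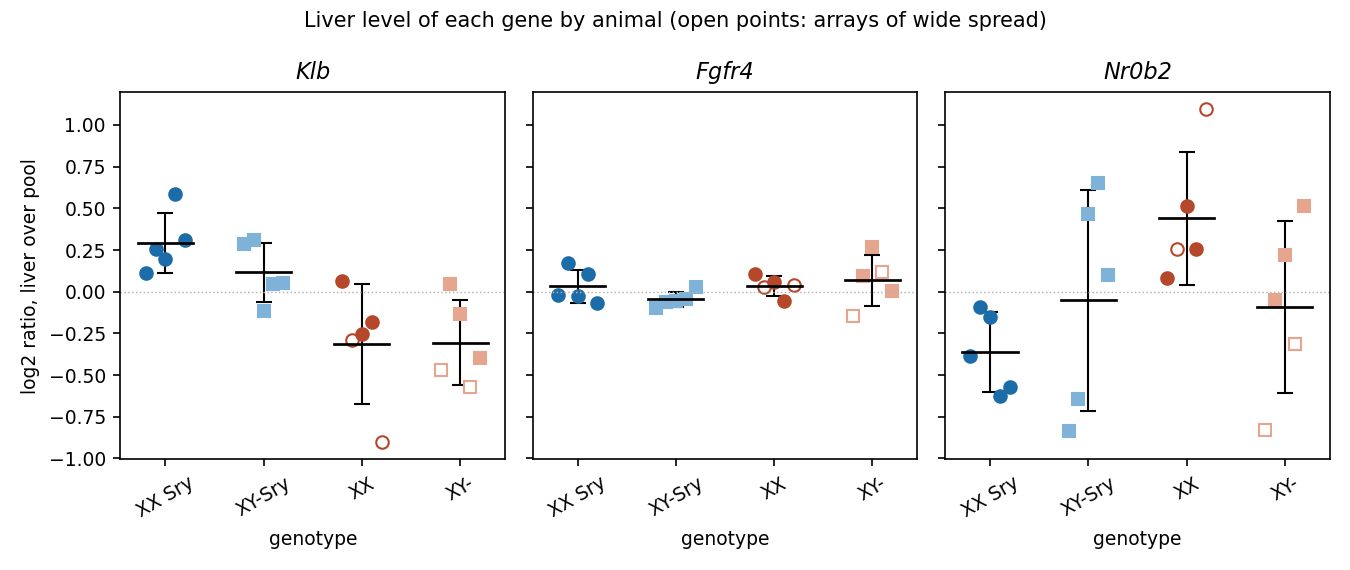
Log2 ratio of liver over pool (vertical axis) for Klb, Fgfr4 and Nr0b2 in each of the 20 animals, by genotype. Lines are group means with SD (n = 5), and open points are the 4 arrays with an SD of log2 ratios above 0.3. Klb lies mostly above 0 in XX Sry and XY-Sry and mostly below 0 in XX and XY-, Fgfr4 stays close to 0 in every group, and Nr0b2 spreads most widely.

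The group means of Klb were 0.29 ± 0.18 in XX Sry, 0.12 ± 0.18 in XY-Sry, -0.31 ± 0.25 in XY- and -0.31 ± 0.36 in XX (SD, n = 5 each). The neighbours XX Sry and XY-Sry differed by 0.18 ± 0.15 (SE), and the neighbours XX and XY- by -0.01 ± 0.15, both within the spread between animals. Over both complements, Klb was higher with Sry by 0.51 on the log2 scale (SE 0.11; 95% interval 0.29 to 0.74), a 1.43-fold ratio. The adjusted p was 0.0122 by limma, with Benjamini-Hochberg adjustment over all 21643 features. An exact permutation test of Klb alone, with Sry status permuted within XX and within XY over 63504 arrangements, gave a two-sided p of 0.000126.

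Among all features, limma called 3.74% for gonadal type at an adjusted p below 0.05, 316 of them higher with Sry (1.46%) and 493 lower (2.28%). Of the 3 genes, Klb was called, as 1 of 3. Its difference ranked 47 by size among the 316 features called higher, and was larger in size than 69.8% of all 809 called features, whose median size was 0.39. The median difference of all features was 0.01.

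Klb was called in each of the 20 fits that left out 1 array, with log2 differences of 0.44 to 0.56 and adjusted p-values of 0.0062 to 0.030. Without the library labelled XY- animal 30 the difference was 0.56 (limma, adjusted p = 0.00698). The 4 arrays of wide spread all came from mice without Sry, and the difference was smaller once they were left out, at 0.35 (SE 0.09; limma, adjusted p = 0.0451).

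The Klb difference ran the same way within each sex chromosome complement. Within XX it was 0.61 (SE 0.15; limma, adjusted p = 0.0775), and the XX Sry and XX livers did not overlap, as was so in this direction for 1.53% of features. An exact permutation test gave a two-sided p of 0.00794, the smallest that 5 against 5 allow. Within XY it was 0.42 (SE 0.15; limma, adjusted p = 0.36; exact permutation p = 0.0159), and the XY-Sry and XY- livers overlapped. Without the library labelled XY- animal 30 the difference within XY was 0.51. Leaving out the 4 arrays of wide spread gave 0.42 within XX and 0.28 within XY. None of these differences within a complement passed the threshold after adjustment over all features, where, over the 20 arrays, limma called 0.665% of features within XX and 0.157% within XY. The Klb differences within XX and within XY were themselves 0.18 apart (95% interval -0.27 to 0.63; limma, adjusted p = 0.9995).

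No difference of Klb between the sex chromosome complements was detectable. Averaged over gonadal types, XX minus XY was 0.08 (95% interval -0.14 to 0.31; limma, adjusted p = 0.937). It was 0.13 without the library labelled XY- animal 30 (limma, adjusted p = 0.85).

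Markers of some other liver cells also differed with gonadal type. Of 12 Kupffer cell and macrophage markers, 5 were called lower with Sry, among them Clec4f (-0.82) and Csf1r (-0.97), where 2.28% of all features were called lower. In that list 0 were called higher, and 1 marker had a difference above 0 (0.32) that was not called. The mean log2 ratio over that list ran from -0.79 to 0.36 in the 10 livers with Sry and from -0.24 to 1.47 in the 10 without. Of 10 lymphocyte markers 6 fell with Sry, led by Il2rb (-1.70) and Cd3g (-1.11), and 3 had differences above 0 that were not called. The means over the lymphocyte list ran from -0.34 to -0.12 with Sry and from 0.00 to 0.75 without. Of 6 stellate cell and fibroblast markers 2 fell (Col1a1 and Pdgfrb), and of 5 erythroid markers 1 fell (Hba-a1). Each of these lists also held 1 difference above 0 that was not called (0.005 and 0.02). Of 4 cholangiocyte markers 0 were called, and of 6 sinusoidal endothelium markers 0. None of 7 hepatocyte markers passed the threshold in limma, and 0 had an unadjusted p below 0.05. Their median difference was -0.05, with list means of -0.21 to 0.07 with Sry and -0.14 to 0.37 without. Without the library labelled XY- animal 30 the counts called were the same in all these lists. Leaving out the 4 arrays of wide spread left 4 Kupffer cell and macrophage markers called lower (C1qa was no longer called) and 5 lymphocyte markers called lower (Cd8a was no longer called), with Gzma called higher. It left 1 stellate cell and fibroblast marker (Col1a1), gave 2 erythroid markers (Hba-a1 and Hbb-b1), and called 0 hepatocyte, cholangiocyte or sinusoidal endothelium markers. Ratios to a pool have no zero, so that it cannot be said which markers were absent. In whole liver, fewer cells of a type and less RNA per cell cannot be told apart, and the part of these markers in the Klb difference was not tested.

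Fgfr4, which encodes the main FGF receptor of hepatocytes and partner of beta-Klotho, was close to level across all livers. In XX Sry animals 38, 18, 9, 31 and 32, the log2 ratios of Fgfr4 were -0.02, 0.17, -0.02, 0.11 and -0.07. In XY-Sry animals 19, 27, 20, 5 and 14, they were -0.10, -0.06, -0.06, -0.04 and 0.03. The XY-Sry livers lay within a narrow band, and 4 of 5 were slightly below the pool.

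In XX animals 29, 6, 21, 35 and 2, the log2 ratios of Fgfr4 were 0.11, 0.03, 0.06, -0.06 and 0.04. In XY- animals 12, 30, 24, 3 and 22, they were -0.15, 0.09, 0.27, 0.12 and 0.01, so that XY- held both the lowest and the highest Fgfr4 ratio of the 20 livers. All groups overlapped. The means ordered XY- (0.07 ± 0.15), XX (0.04 ± 0.06), XX Sry (0.03 ± 0.10) and XY-Sry (-0.05 ± 0.05; SD, n = 5 each), and no pair of neighbours differed beyond this spread.

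For Fgfr4, Sry minus no Sry was -0.06 (SE 0.05; 95% interval -0.16 to 0.04; limma, adjusted p = 0.588), and also -0.06 without the library labelled XY- animal 30. XX minus XY was 0.02 (95% interval -0.07 to 0.12; limma, adjusted p = 0.955), and limma called 0.0277% of features for the sex chromosomes. Without the library labelled XY- animal 30, XX minus XY of Fgfr4 was 0.03 (limma, adjusted p = 0.935). The interaction was 0.11 (95% interval -0.09 to 0.31; adjusted p = 0.9995). The SD of Fgfr4 within groups was 0.0990, larger than that of 19.1% of features, whereas the SD of Klb was 0.254 (larger than 79.6%) and that of Nr0b2 was 0.479 (larger than 96.8%).

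**Figure D2:**
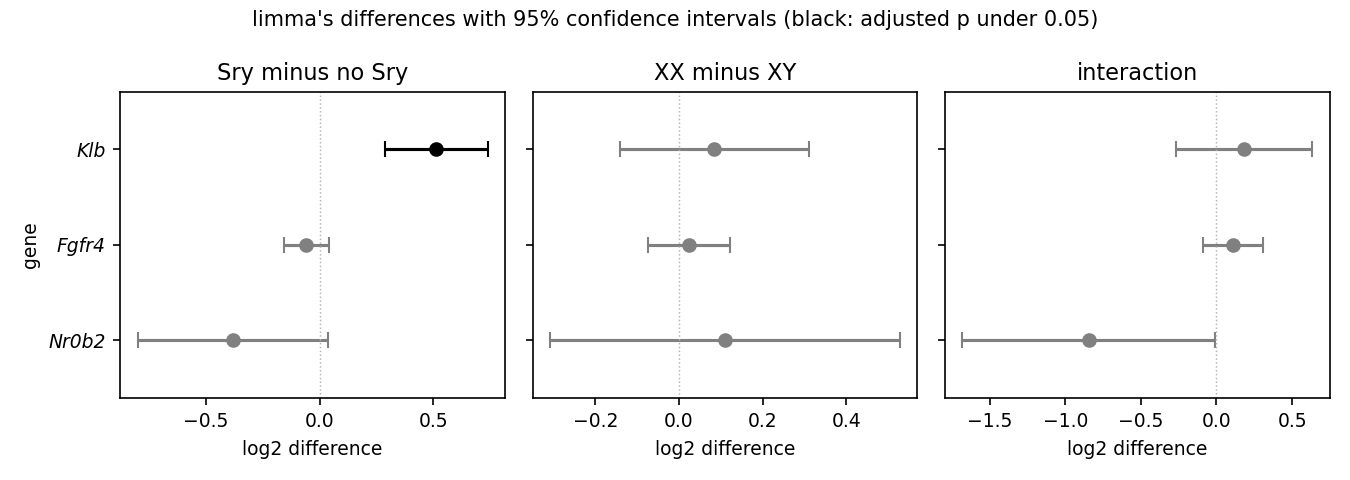
Log2 differences (horizontal axes) of Klb, Fgfr4 and Nr0b2 from limma with 95% confidence intervals, for Sry minus no Sry, XX minus XY and the interaction, over 20 arrays. Black marks an adjusted p below 0.05, which only Klb for gonadal type reached (0.51, interval 0.29 to 0.74); the intervals of Nr0b2 are the widest and those of Fgfr4 the narrowest.

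Nr0b2, the repressor, varied most between animals of the same group. In XX Sry animals 38, 18, 9, 31 and 32, the log2 ratios of Nr0b2 were -0.38, -0.09, -0.15, -0.62 and -0.57. All 5 were below the pool. In XY-Sry animals 19, 27, 20, 5 and 14, they were -0.84, -0.64, 0.46, 0.65 and 0.10. These 5 livers held the lowest Nr0b2 ratio of the 20, and they spread over more than the whole range of XX Sry.

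In XX animals 29, 6, 21, 35 and 2, the log2 ratios of Nr0b2 were 0.08, 0.26, 0.51, 0.26 and 1.10. All 5 were above the pool, and animal 2, which had the lowest Klb, had the highest Nr0b2 of all livers. In XY- animals 12, 30, 24, 3 and 22, they were -0.83, -0.05, 0.22, -0.31 and 0.52. The means ordered XX (0.44 ± 0.40), XY-Sry (-0.05 ± 0.66), XY- (-0.09 ± 0.52) and XX Sry (-0.36 ± 0.24; SD, n = 5 each). XY-Sry and XY- differed by 0.04. Each of the neighbours in this order lay apart by less than the larger of their 2 SDs.

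The difference of Nr0b2 between Sry and no Sry was -0.38 over both complements (SE 0.20; 95% interval -0.80 to 0.04; limma, adjusted p = 0.335; exact permutation p = 0.118), and also -0.38 without the library labelled XY- animal 30. Within XX it was -0.80 (SE 0.28; 95% interval -1.40 to -0.21; limma, unadjusted p = 0.0103, adjusted p = 0.238). The XX Sry and XX livers did not overlap, with all XX Sry livers lower, as was so for 2.83% of features, and the exact permutation test gave a two-sided p of 0.00794. Within XY it was 0.04 (95% interval -0.55 to 0.63; limma, adjusted p = 0.975), and leaving out the 4 arrays of wide spread gave -0.28. Without those 4 arrays the difference was -0.46 over both complements (limma, adjusted p = 0.254) and -0.65 within XX (limma, adjusted p = 0.325).

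The 2 differences of Nr0b2 were 0.84 apart (interaction -0.84, SE 0.40; 95% interval -1.68 to -0.01). The unadjusted p was 0.0477, in a comparison where 2.6% of features had an unadjusted p below 0.05, and the adjusted p was 0.9995 (limma). Limma called 0 of 21643 features for the interaction, and 563 had an unadjusted p below 0.05. The unadjusted p rose above 0.05 in 11 of the 20 fits that left out 1 array, where the interaction lay between -1.04 and -0.66. Leaving out the 4 arrays of wide spread gave -0.37, and leaving out the library labelled XY- animal 30 gave -0.86. XX minus XY was 0.11 over both gonadal types (95% interval -0.31 to 0.53; limma, adjusted p = 0.954) and turned to -0.13 without those 4 arrays. Without the library labelled XY- animal 30 it was 0.12 (limma, adjusted p = 0.934). Among livers without Sry, XX minus XY was 0.53 (limma, adjusted p = 0.767), and 0.05 once those 4 arrays were left out. It was 0.54 there without the library labelled XY- animal 30 (limma, adjusted p = 0.741).

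The other genes of the pathway were taken from 6 lists with 81 measured genes, Klb, Fgfr4 and Nr0b2 included. For gonadal type, 2 rose and 2 fell with Sry (Klb and Spred1, Slc51b and Sult2a1), against 3.74% of all features. The median difference over the 81 genes was 0.02, beside 0.01 over all features, and 21 genes had an unadjusted p below 0.05, against 17.8% of all features. Without the library labelled XY- animal 30, 5 rose (Klb, Spred1, Prox1, Scp2 and Slco1a4) and the 2 that fell were Slc51b and Sult2a1, where 1129 of all 21643 features were called. Without the 4 arrays of wide spread, 832 features were called in all, and of the 81 genes 1 rose (Klb) and 5 fell (Slc51b, Sult2a1, Abcg5, Amacr and Hsd3b7). For the sex chromosomes limma called 0 of the 81 genes, and 3 had an unadjusted p below 0.05, against 5.08% of all features. For the interaction it called 0, and 4 had an unadjusted p below 0.05, against 2.6% of all features.

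**Figure D3:**
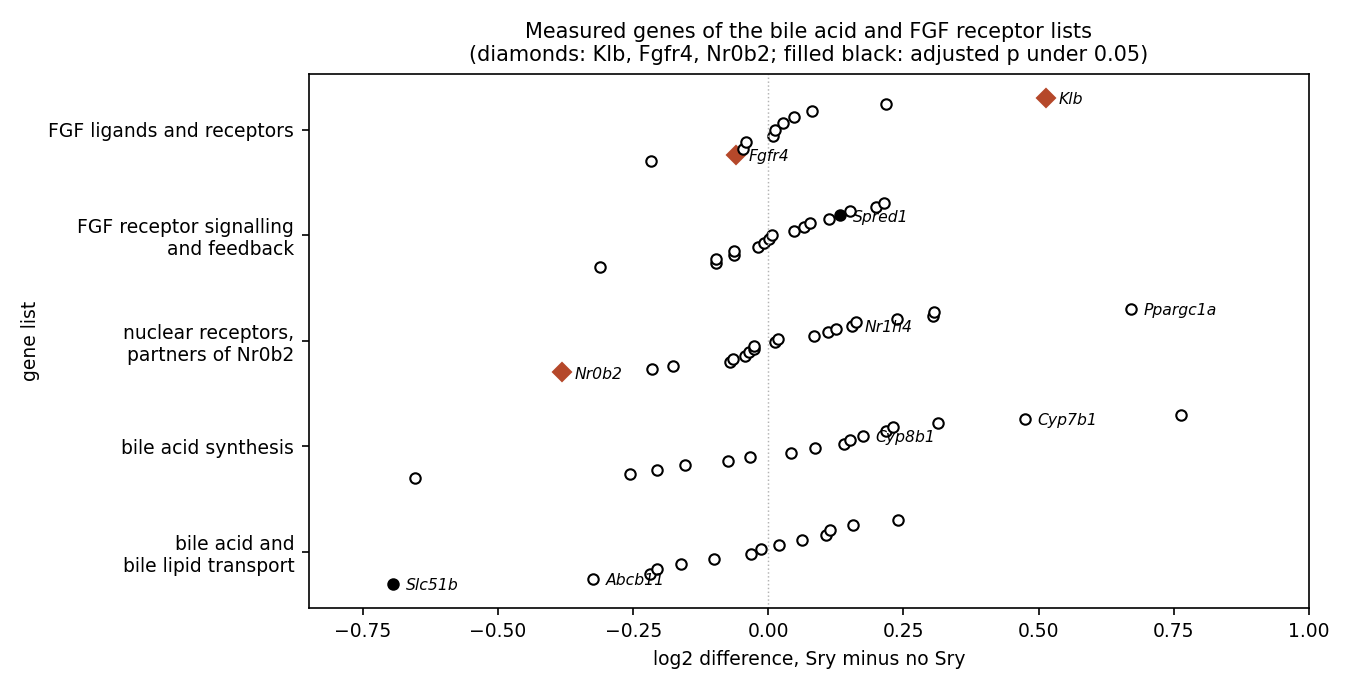
Log2 difference, Sry minus no Sry (horizontal axis), of each measured gene in 5 of the pathway lists (vertical axis). Diamonds are Klb, Fgfr4 and Nr0b2, and filled black points passed an adjusted p of 0.05; Klb (0.51) lies farthest to the right among FGF ligands and receptors, and Slc51b (-0.69) farthest to the left among bile acid transporters.

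Among the 11 FGF ligands and receptors, Klb alone passed the threshold, where 1.46% of all features were called higher, and 7 of 11 differences were above 0. An unadjusted limma p below 0.05 was found for 1 of the 11, against 17.8% of all features. Fgf15, the ileal hormone that signals through Fgfr4, had a difference of 0.08 in liver (95% interval -0.03 to 0.19; limma, adjusted p = 0.483). Fgfr1, the receptor through which FGF21 acts with beta-Klotho in other tissues, had 0.05, Fgfr3 -0.04 and Fgfr2 0.01, none past the threshold. The signs of Fgfr2 and Fgfr1 turned without the 4 arrays of wide spread, to -0.12 and -0.003. Kl, which encodes the related co-receptor alpha-Klotho, had a difference of 0.03 (limma, adjusted p = 0.78).

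Of 17 genes of FGF receptor signalling and feedback, 1 rose, where 1.46% of all features were called higher. An unadjusted limma p below 0.05 was found for 1 of the 17, against 17.8% of all features. Spred1, an inhibitor of Ras-MAPK signalling below growth factor receptors, was higher with Sry by 0.13 (SE 0.04; limma, adjusted p = 0.0498). The adjusted p stayed below 0.05 in 4 of the 20 fits that left out 1 array. Over those 20 fits it ran from 0.0384 to 0.105, and leaving out the 4 arrays of wide spread gave 0.103. Spred1 was also not called with animal number as a covariate (limma, adjusted p = 0.0556). The same held with arrays centred on the median and with each probe as its own feature (limma, adjusted p = 0.053 in each).

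Of 20 nuclear receptors and partners of Nr0b2, 0 passed limma's adjusted threshold. An unadjusted p below 0.05 was found for 6, against 17.8% of all features. Nr1h4, the bile acid receptor FXR that induces Nr0b2, had a difference of 0.15 (SE 0.05; limma, adjusted p = 0.116). Nr5a2, the LRH-1 factor that Nr0b2 represses, had -0.04, and Hnf4a, a hepatocyte regulator that Nr0b2 also represses, had 0.02. Ppargc1a, a coactivator of nuclear receptors in fasting, had the largest difference of that list, 0.67 (SE 0.22; limma, adjusted p = 0.0963). Ppargc1a passed the threshold with array weights (0.79; limma, adjusted p = 0.0242), while 9 of 10 other settings left it uncalled. Of the 20 fits that left out 1 array, it passed in 1, the fit lacking XX 29. The adjusted p in those fits ran from 0.0467 to 0.1825 (limma). Dropping the 4 arrays whose SD exceeded 0.3 lowered the Ppargc1a difference to 0.53 (limma, adjusted p = 0.284).

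Of 16 genes of bile acid synthesis, 0 passed limma's adjusted threshold, and 10 differences were above 0. An unadjusted p below 0.05 was found for 7, against 17.8% of all features. Cyp7b1, the oxysterol hydroxylase of the acidic pathway, was the nearest to the threshold among those named by rule, with 0.47 (SE 0.14; limma, adjusted p = 0.0593). Cyp7b1 passed the threshold with array weights (0.55; limma, adjusted p = 0.0136), with animal number as a covariate (limma, adjusted p = 0.0488) and in 2 of the 20 fits that left out 1 array, without XY-Sry 20 or XY- 12, in which the adjusted p ran from 0.00806 to 0.108. Cyp8b1, the sterol hydroxylase that makes cholic acid and a target of repression by Nr0b2, had 0.18 (SE 0.25; limma, adjusted p = 0.803) and turned to -0.33 without the 4 arrays of wide spread. Cyp7a1 and Cyp27a1 were not analysed here, since no probe was named for them.

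Of 14 genes of bile acid and bile lipid transport, 1 fell, where 2.28% of all features were called lower. An unadjusted limma p below 0.05 was found for 5 of the 14, against 17.8% of all features. Slc51b encodes the beta subunit of the basolateral bile acid exporter OST and is a known FXR target. In the 5 XX Sry livers (animals 38, 18, 9, 31 and 32) Slc51b stood at -0.24, 0.04, -0.28, -0.47 and -0.51, and in XY-Sry (19, 27, 20, 5 and 14) at -0.46, -0.20, -0.49, -0.36 and -0.28. In XX (29, 6, 21, 35 and 2) it stood at 0.06, 0.93, 0.17, 0.23 and 0.92, and in XY- (12, 30, 24, 3 and 22) at 0.33, -0.10, -0.03, 0.86 and 0.31. Of the livers with Sry 9 of 10 were below the pool, and of those without Sry 8 of 10 were above it. The difference was -0.69 (SE 0.13; limma, adjusted p = 0.00672), and it was called in each of the 20 fits that left out 1 array and without the 4 arrays of wide spread (-0.43). Abcb11, the bile salt export pump of the canaliculus, had -0.32 (SE 0.22; limma, adjusted p = 0.489), which came to -0.08 without the 4 arrays of wide spread, and Slc10a1, the uptake carrier NTCP, had 0.16 (SE 0.07; limma, adjusted p = 0.209).

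Of 3 genes of bile acid conjugation and detoxification, Sult2a1 fell, where 2.28% of all features were called lower. Sult2a1 encodes a sulfotransferase of bile acids and steroids and had a difference of -3.69 (SE 0.26; limma, adjusted p = 2.44e-07). Its ratios ran from -3.77 to -1.53 in the 10 livers with Sry and from -0.03 to 1.54 in the 10 without, and did not overlap, as was so for 0.342% of features. Sult2a2 and Sult2a8, closely related genes, were not analysed here, so the value of Sult2a1 is uncertain as to which of these genes it measures.

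Across the 20 livers, 24.1% of 11732 named genes had an r with Klb beyond 0.5 in either direction. An r of that size with Klb was thus not particular to Nr0b2, Nr1h4 or Cyp8b1. Klb and Nr0b2 varied in opposite directions. Their Pearson r was -0.56 (permutation p = 0.0101, adjusted p = 0.0403 over 12 relations) and their Spearman rho -0.57 (permutation p = 0.00979, adjusted p = 0.0587). Without the 2 arrays farthest from the median of Klb (XX 2 and XY- 3), r was -0.50. The adjusted p stayed below 0.05 in 7 of the 20 leave-one-out repeats, where r ran from -0.73 without XY- 12 to -0.39 without XX 2. For deviations from the 4 group means, r was -0.45 (adjusted permutation p = 0.212), so that it did not pass the threshold within groups. Without the library labelled XY- animal 30 it was -0.56 (adjusted permutation p = 0.051). Without the 4 arrays of wide spread, r was -0.83 over 16 arrays (adjusted permutation p = 0.00156). That r is of the ratios themselves, so it includes the differences between groups. Deviations from the group means were not examined without those arrays.

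Klb and Nr1h4 varied in the same direction, with r = 0.62 (adjusted permutation p = 0.0238) and rho = 0.62 (adjusted permutation p = 0.0487). The r was 0.45 without XX 2 and XY- 3, and 0.29 for deviations from the group means (adjusted permutation p = 0.462). The adjusted p rose above 0.05 without XX 2 (0.152) and without XY- 3 (0.0544). Klb and Cyp8b1 had r = 0.62 (adjusted permutation p = 0.0238) and rho = 0.45 (adjusted permutation p = 0.138). The relation of these ratios rests on XX 2 and XY- 3, with r = 0.24 without both, and r was -0.01 without the 4 arrays of wide spread. Deviations from the group means gave r = 0.74 (adjusted permutation p = 0.00792) and rho = 0.68 (adjusted permutation p = 0.0248), and r = 0.58 without XX 29 and XX 2, the 2 arrays farthest from the median there. XY- 3 was kept in that repeat, and deviations without XX 2 and XY- 3 together were not examined.

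**Figure D4:**
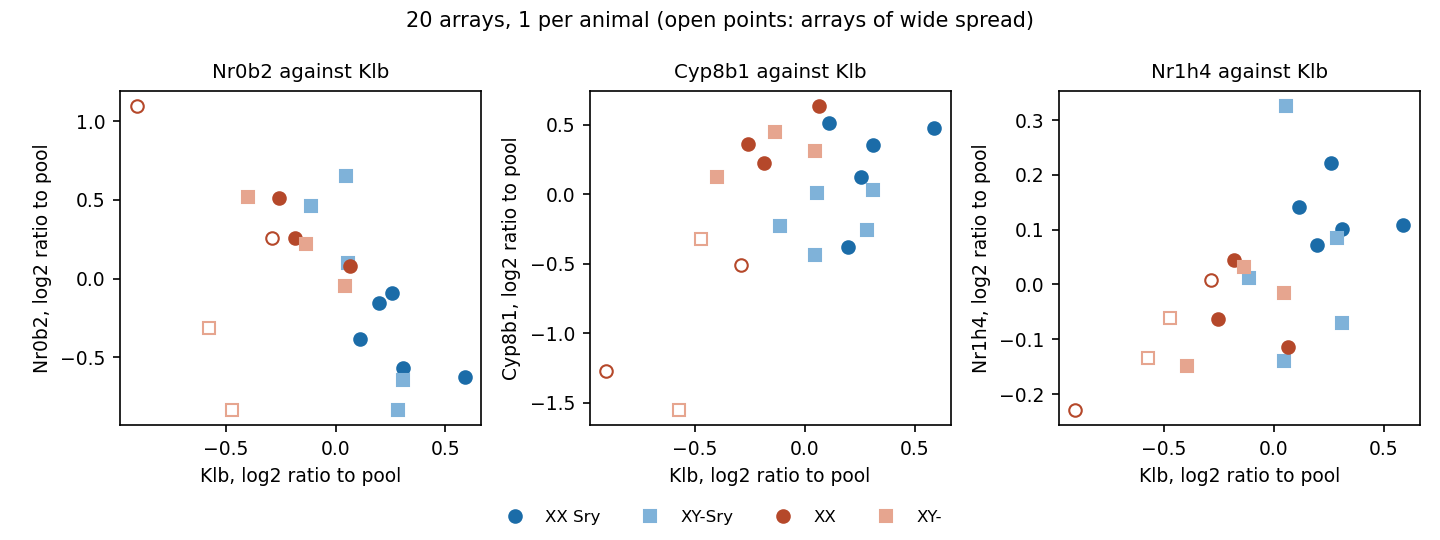
Nr0b2, Cyp8b1 and Nr1h4 (vertical axes) against Klb (horizontal axes), all as log2 ratios of liver over pool, with 1 point per animal and open points for the 4 arrays of wide spread. Nr0b2 falls as Klb rises (r = -0.56), with XY- 12 and XY- 3 below the other points of low Klb; Cyp8b1 has 2 low points, XX 2 and XY- 3, at the left.

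The other 9 relations of the ratios over the 20 livers did not pass an adjusted permutation p of 0.05. Klb with Nr5a2 had r = -0.45 (adjusted permutation p = 0.143), which was 0.04 without the 4 arrays of wide spread. For deviations from the group means, Klb with Nr5a2 had r = -0.63 (adjusted permutation p = 0.047) and rho = -0.65 (adjusted permutation p = 0.0527). Nr0b2 with Nr1h4 had r = -0.40 (adjusted permutation p = 0.202). Fgfr4 had r = -0.03 with Klb and 0.26 with Nr0b2, and between -0.11 and 0.14 with Cyp8b1, Nr1h4 and Nr5a2. Nr0b2 had r = -0.21 with Cyp8b1 and -0.12 with Nr5a2.

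The named genes most like each of the 3 were ranked by Pearson r over the 20 arrays, as a description without a test, since all arrays share the pool and many share gonadal type. For Klb the highest were Rif1 (0.95), Crcp (0.93), Togaram1 (0.92), Cryzl1 (0.91) and Bnip3 (0.91), and the lowest Pde4a (-0.91), Serf2 (-0.90) and Tmem106a (-0.89). Of 11732 named genes, 24.1% had an r with Klb beyond 0.5 in either direction, against 5.79% for Nr0b2 and 1.24% for Fgfr4.

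For Nr0b2 the highest were B3gat3 (0.78), Snx15 (0.78), Pde6d (0.77), Pold1 (0.73) and Cys1 (0.73), and the lowest Ggps1 (-0.75), Smc6 (-0.75) and Bbs4 (-0.75). Ppargc1a came next with -0.74. For Fgfr4 the highest were Fmn1 (0.65), Olfr25 (0.65), Grk1 (0.64), Gcg (0.63) and Myh14 (0.63), and the lowest Creb1 (-0.74), Sav1 (-0.70) and the probe with the platform symbol ATP10D (-0.65). The ratios most like Fgfr4 thus followed it less closely than those most like Klb. Ratios give no signal strength, and no filter on low values was applied. Which of these probes lay near background therefore cannot be said.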

How the data were processed

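Liver RNA of 20 mice was hybridised on 20 two-colour arrays. RNeasy columns with DNase gave the RNA, and an aminoallyl MessageAmp II procedure labelled it, per the labels' protocols. The deposited values are log10 ratios of liver over pool. The log base and direction were read from the values of Y-linked genes and the dyes; another base would scale all differences alike. The labels give the pool as 17 chow-fed mice, the design text as equal portions of the samples; it cancels between groups. Scanner, dye normalization, slide and scan batches are not given in the sources used here.

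Ratios were converted to log2. Of 23574 probes, 12662 were named by Entrez ID through the mouse gene table (GRCm38.p6), 4 by accession, 999 by the platform symbol, 48 matched several genes and 9861 were not listed. Averaging probes of a gene gave 21643 features. Of 190 array pairs, 9 correlated below -0.3 (lowest -0.54); all share 1 dye orientation, so the direction was kept. limma 3.58.1 (R 4.3.3) fitted 4 group means over 20 arrays, with Benjamini-Hochberg adjustment and a threshold of 0.05. The fit was tested on simulated data. Relations used 100000 permutations.

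The 3 genes, the gene lists and the tests were chosen with earlier results of these data known. Beyond them, named genes are fixed pathway genes, pathway genes past the threshold, and the 5 highest and 3 lowest by likeness. Fgf21, Kl, Ppargc1a, marker genes and sex-linked genes were named after their values were seen. Alternatives left out arrays, rescaled arrays, weighted them, or changed the feature set. The list counts without the arrays in doubt, and the genes named there, were chosen after the data were seen.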

Additional observations from a re-analysis of the deposited data

Results flagged for a closer look

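In 80 groups of 5 livers, covering 20 named genes, 1 liver stood apart from the other 4 in 4 groups by Dixon's criterion of 0.71. Chance flags about 1 group in 20. None of the 12 groups of Klb, Fgfr4 and Nr0b2 was among them.

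Fgf21 stood at a log2 ratio of -1.089 in XY- animal 3, against 0.026 or more in the other 4 XY- livers. XX animals 6 and 2, also arrays of wide spread, stood at -1.06 and -1.09, while XY- animal 12, the other array of wide spread, stood at 0.36. Cyp7b1 stood at -0.6097 in XX animal 21, against -0.04 for the nearest of its group. Sult2a1 stood at -1.895 in XY-Sry animal 14, against -2.78 for the nearest. Fgf15 stood at -0.1608 in XY-Sry animal 20, against 0.016 for the nearest. The causes were not tested.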

How the results depend on the processing

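No paired analysis was possible because every animal number was different. Leaving out 1 array at a time, Klb was called for gonadal type in 20 of 20 fits, and Klb and Slc51b were also called under each of the other settings tried. The precision is limited by the number of arrays. The exact permutation tests enumerated all arrangements and were not run for the interaction, and relations with Cyp7a1 were not run. The causes of the changes below were not tested.

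Without the 4 arrays of wide spread, Nr0b2 turned to -0.280 within XY and to -0.129 for XX minus XY, Fgfr4 to -0.00256 for XX minus XY, and Klb to 0.0371 for XX minus XY without Sry. For Sry minus no Sry it gave -0.00313 for Fgfr1, -0.118 for Fgfr2, 0.180 for Nr5a2, -0.331 for Cyp8b1 and -0.118 for Fgf21, and 0 features for the sex chromosomes (6 otherwise). Its r values were -0.00969 (Klb with Cyp8b1), 0.420 (Klb with Nr1h4), 0.0364 (Klb with Nr5a2) and 0.0486 (Nr0b2 with Nr5a2). Without the library labelled XY- animal 30, Klb had 0.0808 for XX minus XY without Sry, 13 features were called for the sex chromosomes, and Klb with Nr0b2 had r = -0.558.

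With array weights, Klb was called within XX (0.562), as were Cyp7b1 (0.546) and Ppargc1a (0.789) for gonadal type, where Nr0b2 had -0.582. Nr0b2 turned to -0.362 within XY and Fgfr4 to 0.0101 within XX, Fgfr2 to -0.0298, Nr5a2 to 0.0472 and Cyp8b1 to -0.0363, and 1707 features were called for gonadal type and 12 for the sex chromosomes. With arrays centred and scaled, Klb was called within XX (0.594) and had 0.00798 for XX minus XY without Sry, Nr0b2 had -0.0168 within XY, Fgfr2 had -0.00627, 10 features were called for the sex chromosomes, and r was 0.0566 for Klb with Fgfr4, 0.502 with Cyp8b1 and 0.563 with Nr1h4. Quantile normalization called Klb within XX (0.603) and gave 0.00384 for its XX minus XY without Sry and -0.00132 for Fgfr2. Centring gave 0.00496 for Klb XX minus XY without Sry. Animal number as a covariate gave -0.0246 for Fgfr2, 0.0140 for Nr5a2 and 2 features for the sex chromosomes, and called Cyp7b1 (0.493). With named genes only, 536 features were called for gonadal type. Spred1 was no longer called with centring (0.129), with animal number as a covariate (0.1305) or with each probe as its own feature (0.133). Unadjusted exact permutation tests passed 0.05 for Klb within XX (0.606) and within XY (0.423) and for Nr0b2 within XX (-0.805).

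For deviations from group means, r was 0.246 (Klb with Fgfr4), -0.454 (Klb with Nr0b2), 0.290 (Klb with Nr1h4) and -0.632 (Klb with Nr5a2, adjusted permutation p = 0.047). Without the 2 farthest arrays, r was 0.120 for Klb with Fgfr4, -0.0236, -0.0106 and 0.0584 for Fgfr4 with Cyp8b1, Nr1h4 and Nr5a2, and 0.00168 for Nr0b2 with Cyp8b1.

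Leaving out 1 array at a time, calls for gonadal type ran from 393 to 1129 (809 otherwise), with the lowest counts without XX Sry 18 (481), XX Sry 31 (404), XY-Sry 19 (393), XY-Sry 27 (532) or XX 2 (493), and calls for the sex chromosomes from 2 to 13 (6 otherwise), above 6 only without XX 2 (9) or XY- 30 (13). Differences ran from 0.459 to 0.701 for Klb within XX, passing only without XX 29 or XY- 12, and from -0.102 to 0.141 for its XX minus XY without Sry. They ran for Fgfr4 from -0.0381 to 0.0212 within XX, -0.00293 to 0.0487 for XX minus XY and -0.0849 to 0.0183 for that without Sry, and for Nr0b2 from -0.145 to 0.236 within XY. Fgfr2 ran from -0.0438 to 0.0765 and Nr5a2 from -0.0912 to 0.0271. The r values ran from -0.153 to 0.0571 (Klb with Fgfr4), -0.734 to -0.391 (Klb with Nr0b2), 0.478 to 0.661 (Klb with Cyp8b1), 0.513 to 0.696 (Klb with Nr1h4), -0.0779 to 0.123 (Fgfr4 with Nr1h4), -0.329 to 0.0522 (Fgfr4 with Nr5a2), -0.366 to 0.0473 (Nr0b2 with Cyp8b1) and -0.207 to 0.0209 (Nr0b2 with Nr5a2).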
